A study of Mus musculus with 2 samples.

Results

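The genes of MHC class II presentation were followed in spleen RNA of NOD.L7 and NOD.g7 mice. They were the 10 rows of the deposited gene table, out of 22216, named H2-Aa, H2-Ab1, H2-Eb1, Cd74, H2-DMa, H2-DMb1, H2-DMb2, H2-Oa, H2-Ob and Ciita. All 10 were present and all 10 passed in both libraries the filter used below, an RPKM of 1 or more. RPKM values are read numbers corrected for the length of a gene and the size of its library. Each genotype was represented by 1 RNA sequencing library made from the spleens of 3 mice pooled together. Both genotype names carry NOD, the non-obese diabetic strain, whose inbred mice develop diabetes of autoimmune origin. The sources used here do not say what g7 and L7 stand for, nor give the age, sex or treatment of the mice. The series title writes the second genotype as NOD.Lc7, and the table heads its columns NOD.LC7 and NOD.

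MHC class II molecules are pairs of an alpha and a beta chain that carry peptides from endosomes to the surface of B cells, dendritic cells and macrophages, where CD4 T cells read them. New chains assemble with the invariant chain, the product of Cd74, which fills the groove and steers the complex to endosomes. There proteases trim it to a short remnant, H2-M exchanges the remnant for other peptides, and H2-O holds H2-M back, chiefly in B cells. The transactivator CIITA, which binds no DNA itself, is recruited to the X and Y boxes of class II promoters by the RFX, CREB and NF-Y factors. In NOD mice the I-A molecule is a well known susceptibility element for diabetes, and no I-E molecule reaches the surface.

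The promoter letters are shown first, since these elements are where CIITA is known to act. RefSeq promoter windows on GRCm38.p6, from 250 bases before to 50 bases after a start site, were matched by symbol for 7 of the 10 genes, in 8 windows. All printed stretches lie on chromosome 17 and run 5′ to 3′ on the gene's strand, 60 bases before to 20 bases after the Y letters. Capitals mark TGATTGG (Y), AACNNATGA (the core of an X box) and TGACGTCA (a CREB-type element), each searched on both strands. The letters come from the reference strain C57BL/6J, and NOD alleles were not read here.
H2-Eb1, chr17:34305746-34305832, plus strand: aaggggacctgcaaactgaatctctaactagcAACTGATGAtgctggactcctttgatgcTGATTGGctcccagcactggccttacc
H2-Ob, chr17:34238786-34238872, plus strand: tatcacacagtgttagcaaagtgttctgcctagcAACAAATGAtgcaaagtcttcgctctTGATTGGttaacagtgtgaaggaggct
H2-DMb1, chr17:34153068-34153154, plus strand: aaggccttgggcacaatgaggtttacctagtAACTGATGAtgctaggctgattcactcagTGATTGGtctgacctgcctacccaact
H2-DMb2, chr17:34145097-34145183, plus strand: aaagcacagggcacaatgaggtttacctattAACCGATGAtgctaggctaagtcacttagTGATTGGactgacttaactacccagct
H2-Aa, chr17:34287847-34287933, minus strand: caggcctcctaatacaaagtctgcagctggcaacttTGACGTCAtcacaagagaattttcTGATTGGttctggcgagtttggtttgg
H2-Oa, chr17:34092274-34092360, plus strand: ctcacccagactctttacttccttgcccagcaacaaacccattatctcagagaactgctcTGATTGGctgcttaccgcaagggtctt

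The X core and the Y letters stood together in 4 windows, those of H2-Eb1, H2-Ob, H2-DMb1 and H2-DMb2. Between them lay 19 bases in H2-Eb1, 17 in H2-Ob and 20 in both H2-DMb genes. Over all 32851 promoter windows of the same length, 2.85% held the X core, 7.82% held the Y letters and 0.307% held both. The H2-Aa window held the CREB-type letters, with 16 bases between them and its Y letters, and 1.79% of all windows held those letters. The H2-Oa window held the Y letters alone. The 2 H2-DMa windows belong to start sites that lie upstream of the short gene model measured in the table, so the promoter of that row was not looked at and these windows are not described. The motif letters were chosen with the promoters of these genes in view, so these shares describe the windows and test nothing. The stretches of H2-DMb1 and H2-DMb2 were identical at 73 of 87 bases.

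**Figure D1:**
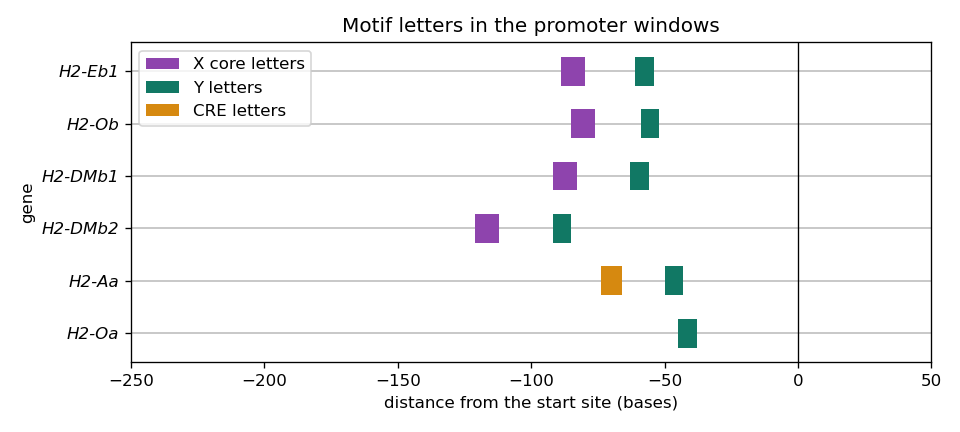
Positions of the X core, CREB-type (CRE) and Y letters in the promoter windows of 6 class II presentation genes, by distance in bases from the RefSeq start site, drawn at 0. The Y letters lie between 39 and 92 bases before the start, with the X core further upstream in 4 genes, across a gap of 17 to 20 bases.

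Steps in the deposited values placed 12.1 Gb of mapped sequence behind NOD.L7 and 9.13 Gb behind NOD.g7. Of the 22216 rows, 11141 reached an RPKM of 1 in either library, and their median log2 ratio of NOD.L7 over NOD.g7 was 0.02, computed as log2 of RPKM plus 1. Of these rows 86.4% lay within 0.25 of 0. With 1 library per genotype no spread between mice or libraries can be measured, so no p-value is given and every difference is one between 2 libraries. The 95% intervals given with folds are exact binomial (Clopper-Pearson) intervals on approximate fragment numbers, and they cover counting error only.

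All 10 genes were lower in the NOD.L7 library as deposited, by 1.12-fold to 1.38-fold at a median log2 ratio of -0.24. When ratios were set against the median of B cell markers, 5 of the 10 were higher, by a log2 ratio of up to 0.07. Among all 11141 genes kept 43.8% were lower in NOD.L7, with the median of 0.02 given above. Set against the B cell markers, 5.54% of all kept genes were lower. None of the 10 reached a 2-fold difference (an absolute log2 ratio of at least 1), which 0.709% of all kept genes did. A smaller step, a log2 ratio of -0.25 or lower, was reached by 5 of the 10, namely H2-Oa, H2-Ob, H2-DMa, H2-DMb2 and Ciita, and by 4.74% of all kept genes. Among the 1215 genes that reached an RPKM of 50 in 1 or both libraries, a level that all 10 reached, 54.2% were lower, 4.94% reached that step and the median was -0.01. Summed over the 10 genes, RPKM was 8869 in NOD.L7 and 10079 in NOD.g7, which was 2.96% of all RPKM in NOD.L7 and 3.35% in NOD.g7.

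**Figure D2:**
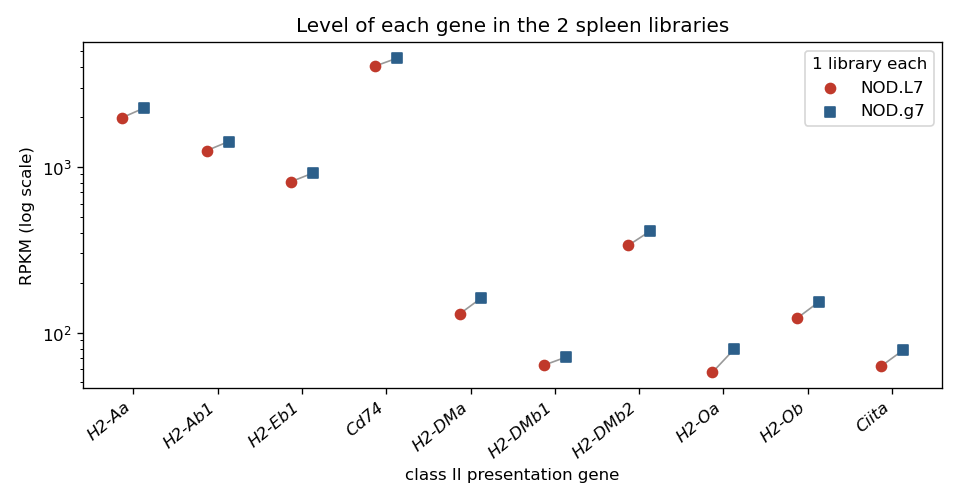
RPKM (log scale) of each class II presentation gene in the NOD.L7 library (circles) and the NOD.g7 library (squares), with 1 library per genotype and so no error bars. As deposited, without scaling to B cell markers, the circle lies below the square for all 10 genes, and levels span 57.6 for H2-Oa to 4524 for Cd74.

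This lower level stood beside a lower level of B cell markers in the same library. Of 14 B cell markers 12 were lower in NOD.L7, 7 of them by the small step, and their median log2 ratio was -0.23. Their summed RPKM was 2723 in NOD.L7 and 3284 in NOD.g7, and none was listed at 0. As deposited, 43.8% of all kept genes were lower and 4.74% reached that step. Set against the B cell median, the 10 genes had a median of -0.01, with 5 lower (H2-Oa, H2-Ob, H2-DMa, H2-DMb2 and Ciita) and 5 higher (H2-Aa, H2-Ab1, H2-Eb1, Cd74 and H2-DMb1). Those higher stood at 0.04 to 0.07. The 14 markers themselves ran from -0.96 to 0.05, so this split depends on taking their median. Scaling to the B cell median put the median of all kept genes at 0.25, with 5.54% of them lower and 1.66% at the small step. Most kept genes were thus higher on it. The part of B cells in the class II values was not tested. In bulk spleen RNA, fewer cells of a type and less RNA per cell cannot be told apart.

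The classical chains come first. H2-Aa (chromosome 17, 34419696 to 34424716 in mm9), the alpha chain of I-A, had an RPKM of 1981 in NOD.L7 and 2266 in NOD.g7. It ranked 5th of all genes in both libraries. H2-Ab1 (34400172 to 34406363), the beta chain that pairs with it, had 1252 in NOD.L7 and 1420.2 in NOD.g7. H2-Eb1 (34442812 to 34453619), the beta chain of I-E, had 813 in NOD.L7 and 916 in NOD.g7. The 3 chains were lower in NOD.L7 to nearly the same degree as deposited, and slightly higher relative to the B cell marker median. The folds of NOD.L7 over NOD.g7 were 0.875 for H2-Aa (interval 0.868 to 0.881), 0.881 for H2-Ab1 (0.873 to 0.890) and 0.887 for H2-Eb1 (0.878 to 0.896).

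The proportions of these chains to each other were alike in the 2 libraries. Per length, H2-Aa stood at 1.58 times H2-Ab1 in NOD.L7 and 1.60 times in NOD.g7. H2-Eb1 stood at 0.65 of H2-Ab1 in both libraries. On the log2 scale both proportions differed between libraries by less than their counting half-widths, which were 0.02. H2-Eb1 RNA was abundant in both libraries, in a strain known for making no surface I-E. The neighbouring H2-Eb2 was far lower, with 23.7 in NOD.L7 and 24.8 in NOD.g7. Reads of the polymorphic class II chains were set by the authors against mm9, and what mismatches to NOD alleles did to these levels was not tested.

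Cd74 (chromosome 18, 60963503 to 60972306), the invariant chain, had the highest RPKM of the whole table in both libraries, 4053 in NOD.L7 and 4524 in NOD.g7. Its fold was 0.896 (interval 0.892 to 0.900), close to those of the chains it guides. Relative to H2-Aa and H2-Ab1 summed, Cd74 stood at 1.25 in NOD.L7 and 1.23 in NOD.g7, a log2 difference of 0.03 with a counting half-width of 0.01. The row of the microRNA Mir5107 lies within Cd74, so reads of the pair could have been shared.

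The peptide exchanger H2-M is made of an alpha chain, H2-DMa, and a beta chain from either of a pair of neighbouring genes. H2-DMa (chromosome 17, 34272616 to 34275480) had an RPKM of 129 in NOD.L7 and 162 in NOD.g7, a fold of 0.799 (interval 0.781 to 0.817). H2-DMb2 (34282361 to 34288040) had 335 in NOD.L7 and 409 in NOD.g7, a fold of 0.819 (0.806 to 0.833). H2-DMb1 (34290136 to 34297174) had 63.6 in NOD.L7 and 71.0 in NOD.g7, a fold of 0.895 (0.860 to 0.931). H2-DMb2 supplied most of the beta chain RNA, at 5.27 times H2-DMb1 in NOD.L7 and 5.76 times in NOD.g7.

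H2-DMb1 lay nearer to the classical chains than to H2-DMb2 in its fold, and the intervals of the 2 beta genes did not overlap. These genes are similar copies: 13.7% of the 100-base windows of the H2-DMb1 transcript and 12.9% of those of H2-DMb2 occur unchanged in the other. The other 8 genes shared no such window with any other annotated gene. The split of reads between the 2 beta genes is therefore uncertain. Relative to both beta genes summed, H2-DMa stood at 0.325 in NOD.L7 and 0.337 in NOD.g7, a log2 difference of -0.06 with a counting half-width of 0.04.

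H2-Oa, a chain of H2-O, showed the widest gap of the 10 genes. H2-Oa (34229324 to 34232179), the alpha chain of this restrainer of H2-M, had an RPKM of 57.6 in NOD.L7 and 79.6 in NOD.g7. Its fold was 0.724 (interval 0.692 to 0.757), and 1.79% of all kept genes had a log2 ratio at or below its value of -0.46. H2-Ob (34375850 to 34382853), the beta chain, had 122 in NOD.L7 and 153 in NOD.g7, a fold of 0.796 (0.781 to 0.813). That interval overlapped those of H2-DMa, H2-DMb2 and Ciita. H2-Oa stood at 0.474 of H2-Ob in NOD.L7 and 0.521 in NOD.g7, a log2 difference of -0.14 with a counting half-width of 0.07.

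The balance of H2-O to H2-M RNA was slightly lower in NOD.L7. The summed H2-O chains stood at 0.339 of the summed H2-M chains in NOD.L7 and 0.362 in NOD.g7. That was a log2 difference of -0.09 with a counting half-width of 0.03, a half-width that leaves out the variation between mice.

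Ciita (chromosome 16, 10488372 to 10527657), the transactivator, had an RPKM of 62.7 in NOD.L7 and 78.3 in NOD.g7, a fold of 0.801 (interval 0.786 to 0.816). Its fold lay with those of H2-DMa, H2-DMb2 and H2-Ob, below those of the classical chains and Cd74. Cd74 stood at 64.7 times Ciita in NOD.L7 and 57.8 times in NOD.g7.

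By level, both libraries gave the order Cd74, H2-Aa, H2-Ab1, H2-Eb1, H2-DMb2, H2-DMa and H2-Ob from the highest down. The 3 lowest genes stood in a different order in each. In NOD.L7 H2-DMb1 (63.6) and Ciita (62.7) were next to each other with H2-Oa (57.6) last, while in NOD.g7 H2-Oa (79.6) and Ciita (78.3) were followed by H2-DMb1 (71.0). Whether neighbours this close differ beyond the spread between mice cannot be said from 1 library each.

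**Figure D3:**
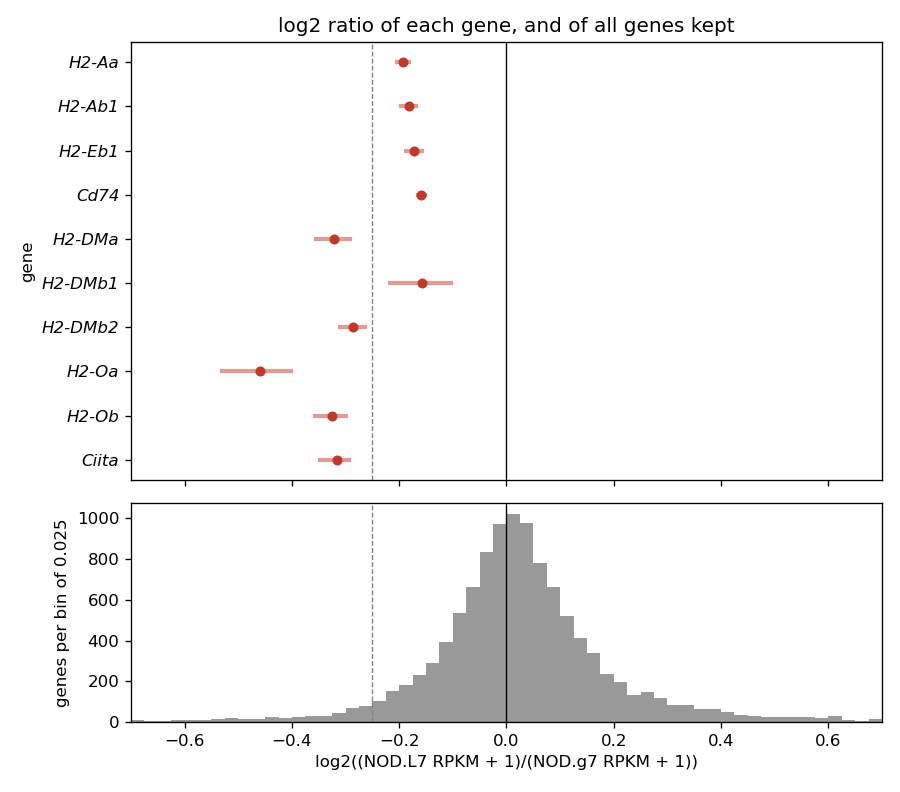
Upper panel, log2 ratio of NOD.L7 over NOD.g7 for each gene (points, with a pseudocount of 1) with the 95% counting interval of the plain fold (lines); lower panel, number of all kept genes per bin of 0.025. Ratios are as deposited, without scaling to B cell markers. The dashed line is the small step of -0.25, with H2-DMa, H2-DMb2, H2-Oa, H2-Ob and Ciita to its left and H2-Aa, H2-Ab1, H2-Eb1, Cd74 and H2-DMb1 between it and 0.

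Of the 10 genes 8 lie together on chromosome 17, between 34229324 and 34453619 in mm9, in a stretch of 13 rows. The other 5 rows are Brd2, which encodes a bromodomain protein, and 4 genes of class I presentation. The 8 class II genes had a median log2 ratio of -0.24, and H2-Oa, H2-DMa, H2-DMb2 and H2-Ob among them reached the small step. The 5 other rows had a median of -0.12, with none at the small step and all but Brd2 lower in NOD.L7. Tap2 (-0.19) and Psmb8 (-0.16) lay within the range of the 8 class II genes, -0.46 to -0.16. Brd2 had an RPKM of 76.4 in NOD.L7 and 75.0 in NOD.g7, while its neighbours H2-Oa and H2-DMa were both lower in NOD.L7 by the small step. Tap1, a subunit of the peptide transporter of class I presentation, had 70.7 in NOD.L7 and 71.7 in NOD.g7. Its partner Tap2 had 73.0 in NOD.L7 and 83.7 in NOD.g7. The immunoproteasome subunits Psmb8 and Psmb9 had 154 and 88.6 in NOD.L7, against 172 and 96.3 in NOD.g7.

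**Figure D4:**
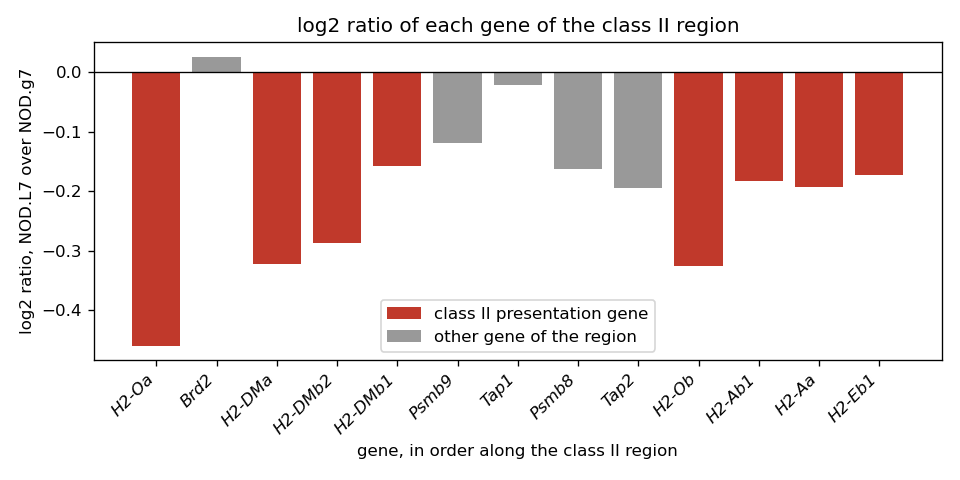
log2 ratio of NOD.L7 over NOD.g7 for the 13 rows of the class II region on chromosome 17, in order of position, as deposited and without scaling to B cell markers. Bars of class II presentation genes run from -0.46 to -0.16, and those of the 5 other genes from -0.19 to 0.03.

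The factors that act on class II promoters were mostly near equal in the 2 libraries. All 22 genes of the list of class II transcription and its regulators were kept, with 13 higher and 9 lower in NOD.L7 and a median log2 ratio of 0.01. Of all kept genes 43.8% were lower. The small step downward was reached by 1 of the 22 and by 4.74% of all kept genes. A log2 ratio of 0.25 or higher was reached by 2 of the 22 and by 8.82% of all kept genes. Rfx5, the RFX subunit that binds the X box, had an RPKM of 16.97 in NOD.L7 and 20.3 in NOD.g7. Its partner Rfxap had 8.20 in NOD.L7 and 6.61 in NOD.g7. Irf1, an interferon-induced factor that acts on a Ciita promoter, had 77.7 in NOD.L7 and 64.4 in NOD.g7. The B cell factor Pax5 had 103 in NOD.L7 and 127 in NOD.g7, and it is also on the B cell list.

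The enzymes that prepare antigen and invariant chain in endosomes were mostly near equal. Of 13 such genes 8 were higher and 5 lower in NOD.L7, at a median log2 ratio of 0.04, where 43.8% of all kept genes were lower. Ctsb, the gene for cathepsin B, had 165 in NOD.L7 and 133 in NOD.g7. Lgmn, the asparaginyl endopeptidase legumain, had 52.3 in NOD.L7 and 42.5 in NOD.g7. Ifi30, the thiol reductase that opens disulfide bonds of antigens, had 218 in NOD.L7 and 191 in NOD.g7. Ctse, the gene for cathepsin E, was lower, with 9.99 in NOD.L7 and 16.6 in NOD.g7.

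Among 17 kept genes of class II traffic and turnover, 13 were higher and 4 lower in NOD.L7, at a median of 0.09. The share lower among all kept genes was 43.8%. The largest gap on the list was in the tetraspanin gene Cd81, with 156 in NOD.L7 and 82.3 in NOD.g7. The tetraspanin Cd63 had 4.80 in NOD.L7 and 2.96 in NOD.g7, and Rab27a, a small GTPase of secretory lysosomes, had 20.1 in NOD.L7 and 14.6 in NOD.g7. Marchf8, a ubiquitin ligase that turns class II over, had 2.02 in NOD.L7 and 2.66 in NOD.g7.

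Costimulatory genes of presenting cells split evenly, with 4 of 8 kept genes higher and 4 lower in NOD.L7, near the 43.8% lower of all kept genes. Their median was 0.14, which turned to -0.05 at a filter of RPKM 5. Cd86 and Cd80, the ligands of CD28, had 18.5 and 4.75 in NOD.L7, against 11.1 and 2.73 in NOD.g7. Tnfsf9, the 4-1BB ligand, had 2.78 in NOD.L7 and 1.42 in NOD.g7. Cd40, through which T cells activate B cells, had 34.2 in NOD.L7 and 47.5 in NOD.g7. On the T cell side, the class II receptors Cd4 and Lag3 were both higher in NOD.L7, with 136 and 5.40 in NOD.L7 against 106 and 3.96 in NOD.g7.

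**Figure D5:**
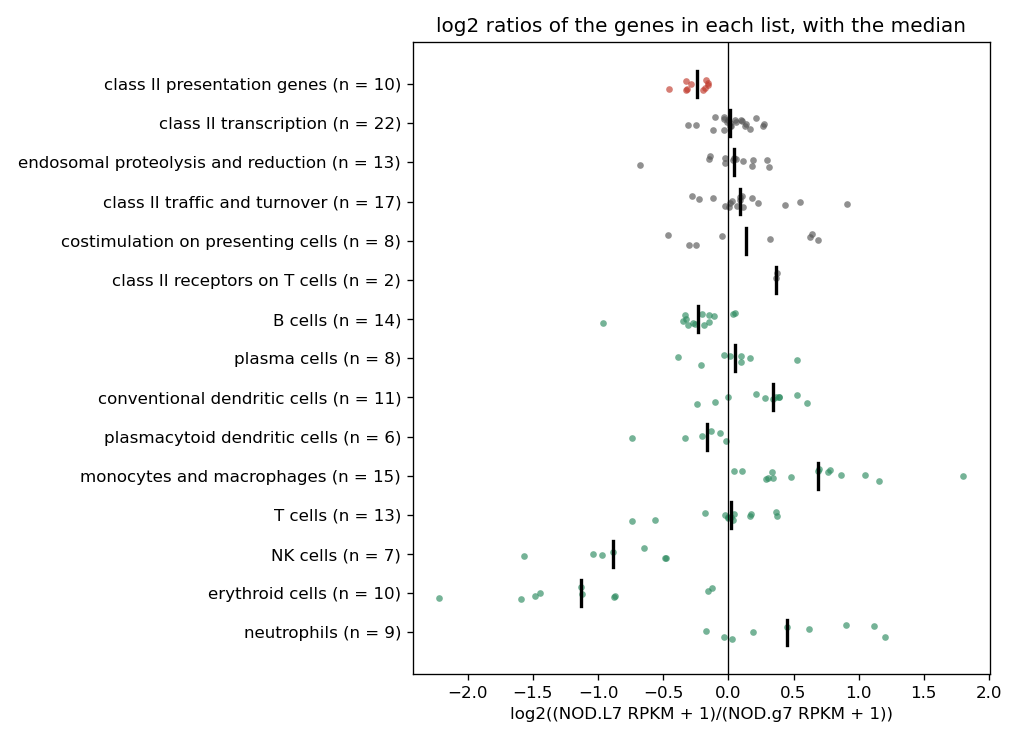
log2 ratios of NOD.L7 over NOD.g7 for the genes of each list (points, spread vertically for legibility) with the list's median (black bar); red is class II presentation, grey the pathway lists and green the cell type markers. The class II genes (median -0.24) lie near the B cell markers (-0.23), and the plasmacytoid dendritic cell markers (-0.17) lie on the same side of 0. Conventional dendritic cells (0.34) and monocytes and macrophages (0.69) lie on the other side.

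The markers of the cell types that carry class II differed in direction between the libraries. For comparison, 43.8% of all kept genes were lower in NOD.L7. In NOD.L7 all 15 monocyte and macrophage markers were higher, with a median log2 ratio of 0.69 and a summed RPKM of 1398 in NOD.L7 against 1112 in NOD.g7. Among them Vcam1, an adhesion molecule of red pulp macrophages, had 91.5 in NOD.L7 and 43.8 in NOD.g7. Of 11 conventional dendritic cell markers 8 were higher, at a median of 0.34 and a summed RPKM of 284 in NOD.L7 against 271 in NOD.g7. Batf3 had 6.37 in NOD.L7 and 3.86 in NOD.g7. The 3 lower markers were Xcr1, Clec9a and Ccr7. They had 1.34, 2.39 and 126 in NOD.L7, against 1.52, 2.40 and 150 in NOD.g7.

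All 6 genes listed as plasmacytoid dendritic cell markers were lower in NOD.L7, 2 of them by the small step, at a median of -0.17. Over all kept genes 43.8% were lower and 4.74% reached that step. Which cells the RNA of these 6 genes came from was not tested. Among B cell markers the low-affinity IgE receptor gene Fcer2a had 132 in NOD.L7 and 257 in NOD.g7, the lowest log2 ratio of that list (-0.96). The receptor subunit Cd79b had 511 in NOD.L7 and 651 in NOD.g7. The 2 higher B cell markers, Cr2 and Cd72, had 152 and 143 in NOD.L7, against 148 and 138 in NOD.g7. Plasma cells, which switch class II off, had a marker median of 0.05, with 5 of 8 higher. Markers of other cells also differed, with medians of 0.02 for T cells, -0.89 for NK cells, -1.13 for erythroid cells and 0.45 for neutrophils. No marker on these lists was listed at 0 in either library, and the part of cell composition in the class II values was not tested.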

How the data were processed

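Spleen RNA of 2 genotypes was measured in 1 library each, made with a TruSeq RNA kit after RNeasy extraction, per the labels' protocols. The authors deposited 1 table of RPKM values per gene, with mm9 coordinates. The build mm9 and the tools SAMtools 0.1.18 and CASAVA 1.8.2 appear per the submitters' processing notes. The sources used here do not give the gene models, the strandedness or the handling of multiply mapping reads. The column NOD.LC7 was taken as NOD.L7 and the column NOD as NOD.g7.

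From the deposited RPKM values, log2((NOD.L7 RPKM + 1)/(NOD.g7 RPKM + 1)) was computed for the 11141 rows at an RPKM of 1 or more in NOD.L7, NOD.g7 or both, in Python 3.11.15 with numpy 2.4.6 and scipy 1.17.1. Depth came from single-exon genes under 2500 bases whose span equalled the GENCODE M21 length: RPKM times length was a whole multiple of 1 step (tolerance 0.15) for 100% of 87 values in NOD.L7 and of 68 in NOD.g7. Fragments were approximated from RPKM, the longest coding transcript and an assumed 200 bases per fragment. The recovery of depth, the log2 ratios and the TMM factor were tested on simulated data. The counting intervals, lists, shared windows and motif searches were not. Of list genes, 9 were matched through older symbols in RefSeq tables (GRCm38.p6), and 1, the erythroid Epb42, was not matched. Named genes were the 10 members, all rows between the outermost members on chromosome 17, and up to 4 genes per list with the largest absolute log2 ratio, not all of which are printed. H2-Eb2, Mir5107, Xcr1, Clec9a, Ccr7, Cr2 and Cd72 were chosen after their values were seen. The members and lists were chosen with earlier results of these data known. Alternatives were pseudocounts, filters, scalings and subsets of members.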

Additional observations from a re-analysis of the deposited data

How the results depend on the processing

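No paired analysis was possible because there is 1 library a genotype, and no replicate could be left out. The median log2 ratio of the 10 genes (-0.24) lay between -0.26 and -0.24 with pseudocounts of 0.1 or 0.5, median centring, a TMM factor, no filter, filters at an RPKM of 5 or 50, without H2-DMb1 and H2-DMb2, and without the H2 genes. In each of these settings all genes included were lower in NOD.L7. Relative to the B cell marker median it was -0.00958, with 0 genes at the small step against 5. On that scaling 1.66% of all kept genes reached the step and 5.54% were lower. Without the H2 genes 2 genes remained by construction, Cd74 and Ciita, of which 1 reached the small step. The 2-fold rule was met by 0 genes in every setting. The log2 ratios of H2-Aa, H2-Ab1, H2-Eb1, Cd74 and H2-DMb1 were above 0, at up to 0.07, relative to the B cell marker median, and below 0 in the other settings run. H2-DMa relative to the beta chain, NOD.L7 over NOD.g7, was 0.962 with both beta genes and 0.893 with H2-DMb1 alone. The costimulation list's median was -0.05 at a filter of RPKM 5, which leaves out its low genes, against 0.14, and the erythroid list's was -1.46 at a pseudocount of 0.1 and -1.29 at that filter. Counting error limits the ratios of H2-Aa and H2-Eb1 to H2-Ab1, whose differences between libraries lay within it, and the variation between mice was not measured.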
